A study of Homo sapiens with 6 samples.

Results

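The RAB small GTPases were examined as a family in OCI-AML2, a human acute myeloid leukemia cell line, after CRISPR editing. The family was taken as every protein-coding gene whose symbol is RAB followed by a number and, where there is one, a letter. RAB-like genes, pseudogenes and the genes of RAB partners were kept apart. The rule gave 63 of the 58233 genes in the count table. Messenger RNA was sequenced from 3 libraries with the genotype IKZF1-ko, in which IKZF1 was knocked out, and 3 libraries with the genotype NT control, which carry a non-targeting control. Ikaros, the product of IKZF1, is a DNA-binding protein that controls the development of blood cells. Both groups are the same cell line in the same medium, and no drug treatment is named for either. The design text speaks of 3 lines per group and the extraction protocol of triplicate isolations, so the libraries may be technical replicates, and the p-values then measure only the spread between these libraries. Whether a line was 1 clone or a pool of edited cells is not stated.

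RAB proteins are molecular switches that give each membrane compartment of a cell its identity and direct vesicle traffic between compartments. A guanine nucleotide exchange factor (GEF) loads a RAB protein with GTP on its membrane, effectors bind the loaded form, and a GTPase-activating protein (GAP) ends the cycle, after which an inhibitor called GDI lifts the protein off the membrane. Escort proteins present newly made RAB proteins for the lipid modification that anchors them. Myeloid cells use the family for phagosome maturation, for endosomal recycling of receptors and for the release of granules.

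The 6 libraries held 11300519 to 18214328 counts each, and all 3 IKZF1-ko libraries held more than any NT control library. IKZF1 itself had 421, 426 and 436 CPM (counts scaled to a common library size) in the IKZF1-ko libraries, against 331, 292 and 334 CPM in the NT control libraries. The mRNA of the targeted gene was therefore not lower in the libraries labelled IKZF1-ko (log2 fold change 0.43 with the library-set term explained next, adjusted p = 1.23e-05 by edgeR's quasi-likelihood test), and these counts do not show whether the protein was lost. The first principal component, with 67.6% of the variance, set IKZF1-ko replicate 1 and NT control replicate 2 apart from the other 4 libraries. These 2 libraries, called the smaller set here, had more RNA of a hypoxia-inducible gene list, of which 10 of 11 tested genes were higher in both of them. The myeloid genes CD33, MPO, SPI1, PTPRC and CSF3R were present in every library, whereas CD3E, MS4A1, HBA1, HBB, PF4, EPCAM and KRT18 had 0 counts in all of them. In bulk RNA, fewer cells of a kind and less RNA per cell cannot be told apart.

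Changes were found in a few members, with the library-set term or in the other 4 libraries alone. With group as the only term, 0 of the 45 tested RAB genes passed. RAB13 was about 5 times as abundant in IKZF1-ko as in NT control libraries, RAB32 and RAB31 were higher by smaller factors, and RAB5C was lower. Of the 4 most abundant members per length, RAB1B was slightly lower, and RAB7A, RAB44 and RAB10 did not pass the test. Over all libraries, the groups overlapped for RAB31, RAB5C and RAB1B. Promoter sequences of RAB13, RAB31, RAB32 and RAB3D are shown because these 4 genes rose in both fits described later and Ikaros is known to bind DNA at sequences with a GGGAA core. Capitals mark TGGGAA on either strand, and each window runs from 250 bases before to 50 bases after a transcript start, with sequences and starts from RefSeq on GRCh38.p14. RAB13 has 2 such windows, at chr1:153986290-153986589 and chr1:153985344-153985643 on the minus strand, with starts 946 bases apart. The RAB31 window is chr18:9708051-9708350 and the RAB32 window is chr6:146543583-146543882, both on the plus strand. The RAB3D window is chr19:11339608-11339907 on the minus strand.
RAB13 upstream start: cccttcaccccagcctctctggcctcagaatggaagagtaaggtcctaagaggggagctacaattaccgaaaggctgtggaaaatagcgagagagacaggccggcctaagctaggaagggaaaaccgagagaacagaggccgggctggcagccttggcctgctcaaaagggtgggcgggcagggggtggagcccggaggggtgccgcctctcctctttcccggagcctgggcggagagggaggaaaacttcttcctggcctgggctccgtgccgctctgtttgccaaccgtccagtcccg
RAB13 downstream start: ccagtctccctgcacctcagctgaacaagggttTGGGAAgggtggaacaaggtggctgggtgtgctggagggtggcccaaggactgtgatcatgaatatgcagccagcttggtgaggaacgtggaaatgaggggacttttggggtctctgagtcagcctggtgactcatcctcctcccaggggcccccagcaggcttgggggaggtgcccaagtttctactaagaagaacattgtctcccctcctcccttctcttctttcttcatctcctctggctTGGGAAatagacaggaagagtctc
RAB31: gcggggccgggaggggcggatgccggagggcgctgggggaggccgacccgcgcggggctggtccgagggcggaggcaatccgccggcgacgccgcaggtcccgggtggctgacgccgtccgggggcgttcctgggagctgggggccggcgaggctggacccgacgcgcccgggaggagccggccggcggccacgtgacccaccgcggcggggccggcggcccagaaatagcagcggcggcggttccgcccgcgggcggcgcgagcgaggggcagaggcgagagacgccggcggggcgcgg
RAB32: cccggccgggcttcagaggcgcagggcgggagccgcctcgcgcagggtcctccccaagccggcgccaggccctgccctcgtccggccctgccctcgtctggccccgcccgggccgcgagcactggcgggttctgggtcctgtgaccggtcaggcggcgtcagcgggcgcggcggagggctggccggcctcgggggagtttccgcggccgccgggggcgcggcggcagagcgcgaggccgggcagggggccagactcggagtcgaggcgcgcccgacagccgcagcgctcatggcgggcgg
RAB3D: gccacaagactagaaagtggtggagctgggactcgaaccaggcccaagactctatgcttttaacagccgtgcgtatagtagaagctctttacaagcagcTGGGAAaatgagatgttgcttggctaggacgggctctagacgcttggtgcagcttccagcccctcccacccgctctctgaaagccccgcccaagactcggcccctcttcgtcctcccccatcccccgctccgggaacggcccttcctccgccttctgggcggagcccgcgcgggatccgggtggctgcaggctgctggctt

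The downstream RAB13 window holds 2 matches to TGGGAA and the upstream one holds 0. The RAB3D window holds 1 match to TGGGAA, with a G and C share of 62.0%. The RAB31 and RAB32 windows hold 0 matches to TGGGAA and are rich in G and C, at 82.7% and 81.0%. The upstream and downstream RAB13 windows have 62.3% and 55.7%. The shorter GGGAA core without the leading T was not marked or counted. It also occurs in the upstream RAB13 window and at an unmarked place in the RAB3D window. Among the RAB windows in the RefSeq table, 10 of 71 (14.1%) hold TGGGAA, beside 8439 of all 35116 windows (24.0%). The 10 RAB windows come from 9 of the 50 RAB genes with a window. The 11 RAB genes that passed in at least 1 fit include 3 with TGGGAA in at least 1 window, RAB13, RAB3D and RAB6A. A share per gene over all genes was not computed, so this count has no like background. A match describes the letters only, and no binding was measured.

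Of the 63 RAB genes, 45 had counts high enough to be tested and 18 did not. RAB3B, RAB6B, RAB6D, RAB19 and RAB41 had 0 counts in every library. The other 13 untested members reached at most 15 counts in a library, or 0.962 CPM. They include RAB17 and RAB25, known from epithelial cells, RAB38, known from pigment cells, and RAB27B, the close relative of the abundant RAB27A. The family as a whole took 0.260%, 0.242% and 0.243% of the counts in IKZF1-ko libraries and 0.246%, 0.260% and 0.250% in NT control libraries, so the groups overlapped.

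Levels between genes are given as CPM per kilobase of exon, as the mean over all 6 libraries. RAB7A, which drives fusion of late endosomes with lysosomes, led the family at 101.8, followed by RAB1B (endoplasmic reticulum to Golgi transport) at 76.6, RAB44 (an unusually large RAB protein of blood cells) at 67.6 and RAB10 (exocytic transport) at 43.6. RAB4A and RAB27A followed at 27.0 and 26.7. Between RAB7A and RAB30, the lowest tested member, the level differed 1360-fold. The 4 genes with the most counts took 35% of all RAB counts. RAB13 stood at rank 33 of the family, with 4.82 ± 0.453 CPM per kilobase in IKZF1-ko and 0.981 ± 0.226 in NT control libraries (SD, n = 3 each).

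**Figure D1:**
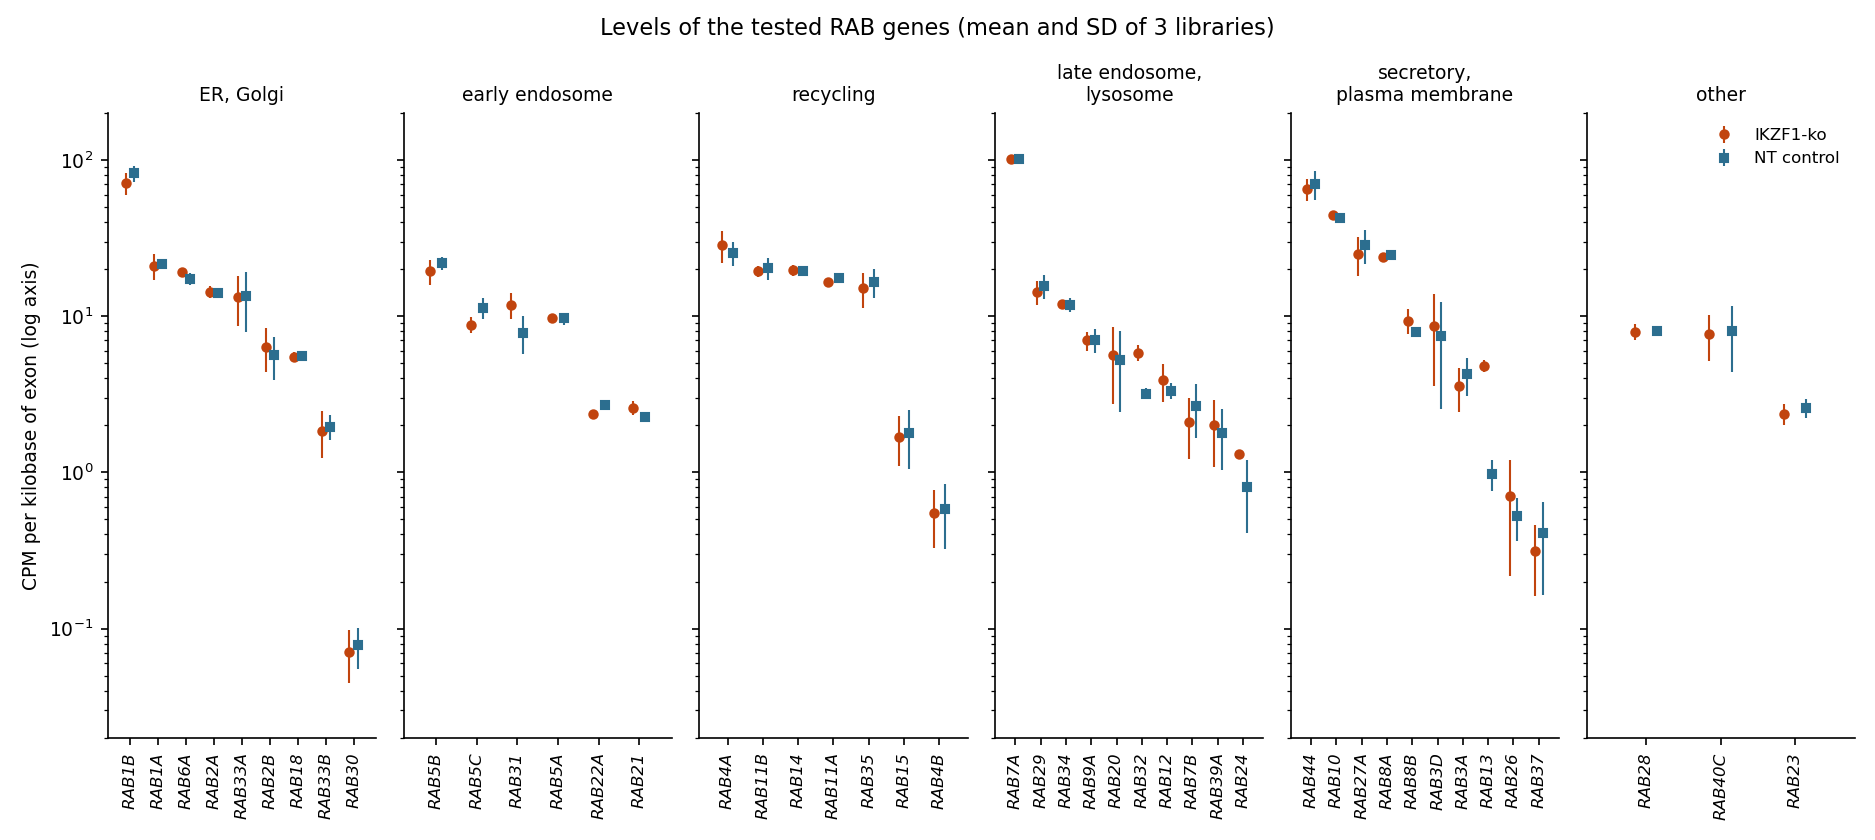
Mean level of each of the 45 tested RAB genes in IKZF1-ko (circles) and NT control (squares), in CPM per kilobase of exon on a log axis, with the SD of 3 libraries as bars and the genes grouped by role. RAB7A is highest at 101.8 over all libraries, and RAB13 is the gene whose 2 symbols lie farthest apart.

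With group as the only term, edgeR's quasi-likelihood test passed 0 of the 45 RAB genes at an adjusted p of 0.05, beside 0% of all 13028 tested genes. At an unadjusted p under 0.05 it had 3 RAB genes, against 456 genes (3.5%) in all. RAB13 came nearest at an adjusted p of 0.0947. On the same 6 libraries, DESeq2 called 1 RAB gene, RAB13, and 71 genes in all, and limma-voom called 0 RAB genes and 1 gene in all. In CPM, 3 tested RAB genes (RAB13, RAB32 and RAB21) were higher in every IKZF1-ko library than in any NT control library and 1 (RAB22A) was lower, beside 5.28% and 4.07% of all tested genes (9.35% in both directions).

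A term for the library set, or restriction to the 4 libraries of the larger set, gave the calls reported from here on. With the term, 9 of 45 RAB genes passed (20%), beside 13.5% of all tested genes. Of these, 5 rose (RAB13, RAB32, RAB31, RAB3D and RAB4A) and 4 fell (RAB5C, RAB1B, RAB27A and RAB5B). Over all tested genes, 6.93% rose and 6.62% fell. In the 4 libraries of the larger set, 10 of 45 RAB genes passed (22.2%), beside 14.7% of all 12951 genes tested there. Here 6 rose (RAB13, RAB32, RAB31, RAB24, RAB3D and RAB6A) and the same 4 fell, beside 7.64% and 7.1% of all genes. The fits shared 8 RAB calls, and 11 members passed in at least 1 of them. With a surrogate variable instead of the set, 7 RAB genes passed, beside 8.04% of all tested genes. With counts thinned to equal depth, 9 passed in each fit. The median log2 fold change with the term was -0.02 for RAB genes and 0.00 for all tested genes, and the median absolute log2 fold change was 0.14 and 0.12. The set term was defined from the same counts, so its p-values leave out the uncertainty of the sets, and the 4 libraries are part of the 6.

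**Figure D2:**
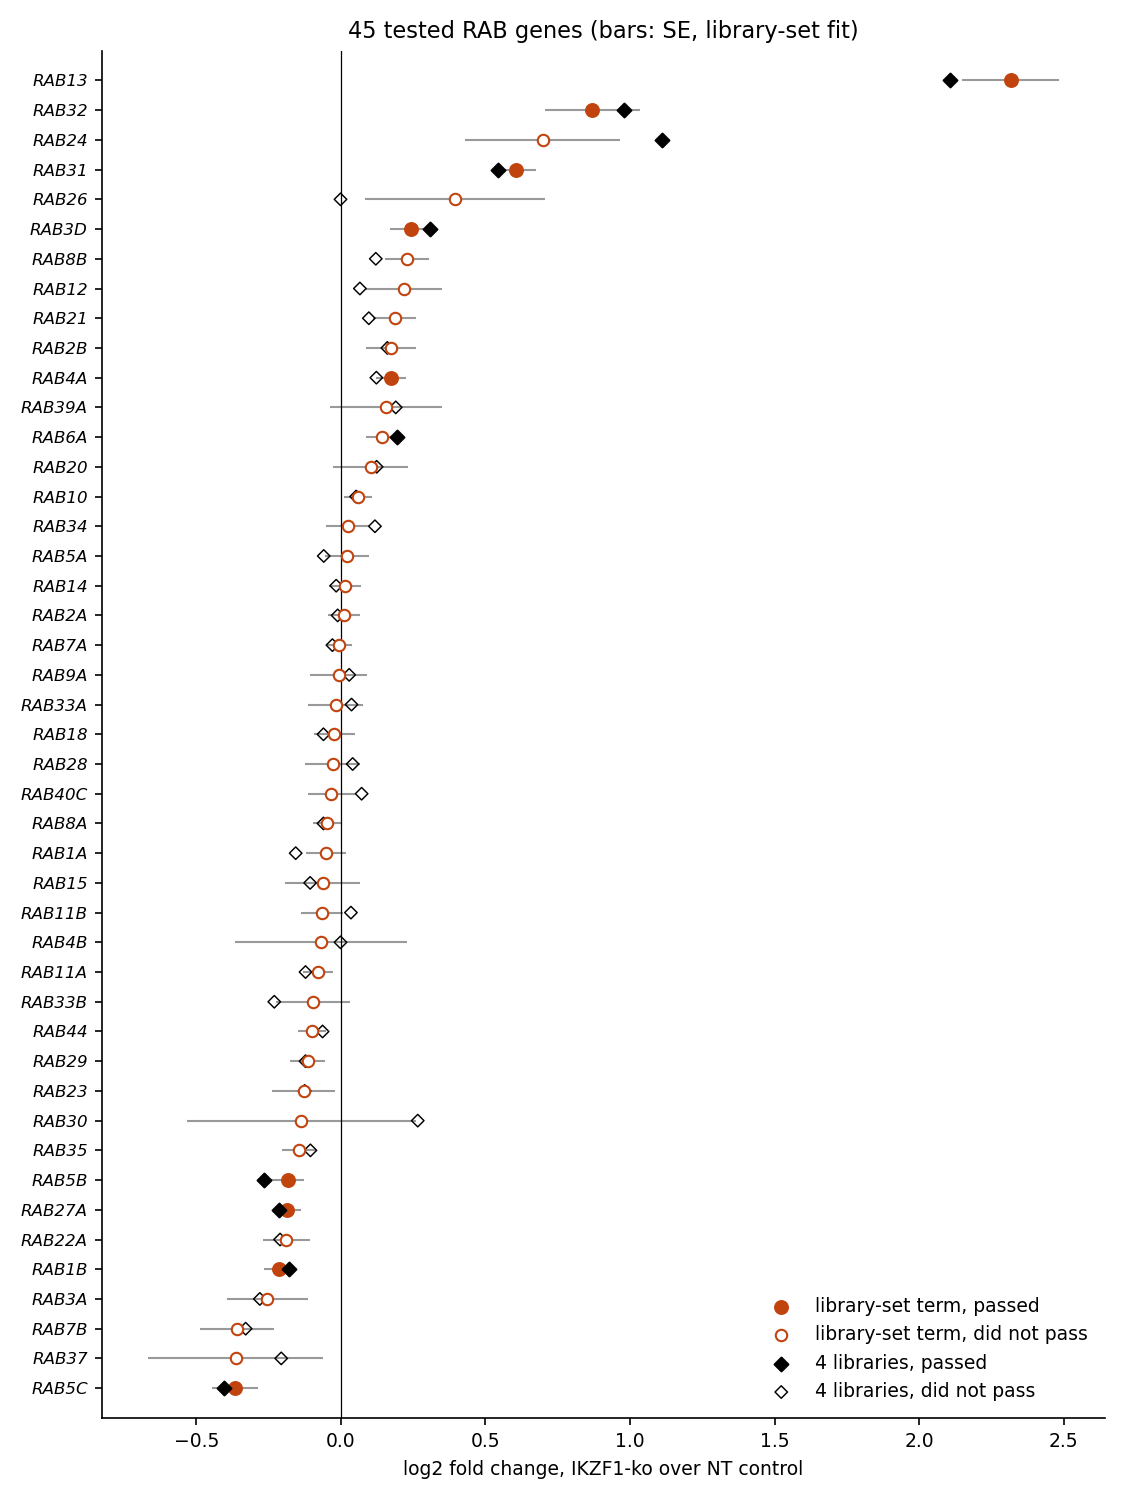
Log2 fold change, IKZF1-ko over NT control, of the 45 tested RAB genes with the library-set term (circles, with SE bars) and in the 4 libraries of the larger set (diamonds). Filled symbols passed at an adjusted p of 0.05; RAB13 stands alone above 2, and 37 of the 45 genes lie within 0.3 of 0 with the set term.

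Among RABs of secretory vesicles and the plasma membrane, 10 of 13 members were tested, 2 rose and 1 fell with the set term. RAB13 carries cargo from the trans-Golgi and recycling endosomes to the cell surface and is best known from epithelial tight junctions. It had 201, 264 and 202 counts in IKZF1-ko replicates 1, 2 and 3, against 36, 29 and 35 counts in the NT control replicates. In CPM these were 13.4, 14.4 and 11.9 in IKZF1-ko and 3.06, 1.98 and 3.06 in NT control. Every IKZF1-ko library was above every NT control library, with no overlap. The log2 fold change with the set term was 2.32 (SE 0.17), a 4.98-fold rise (adjusted p = 1.37e-07, edgeR), and in the 4 libraries it was 2.11 (adjusted p = 1.02e-09). Among all tested genes, its fold change ranked 10 of 13028. Unlike the members described next, RAB13 passed in each of 17 alternative settings with the set term and each of 13 in the 4 libraries, with log2 fold changes of 1.96 to 2.42.

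RAB13 (ENSG00000143545) lies at chromosome 1, 153981617 to 153986358 on GRCh38, minus strand. In the GENCODE annotation 682 of its 2751 exon bases (24.8%) also belong to AL358472.6 on the same strand. That gene was not among the protein-coding genes found in the count table within 100 kb of RAB13. How reads in the shared part were counted is not stated, so the RAB13 value is uncertain to that extent. Its neighbours within 100 kb moved much less. The upstream neighbour RPS27, a ribosomal protein gene, had a log2 fold change of 0.16 with the set term (adjusted p = 0.0264, edgeR), and JTB, on the other side, had -0.20 (adjusted p = 0.0301). CREB3L4, a transcription factor gene, had 0.37 (adjusted p = 0.00631). GATAD2B, DENND4B, CRTC2 and SLC39A1 had values of -0.11 to 0.17 and did not pass, although DENND4B, which encodes a GEF for RAB10, passed in the 4 libraries at 0.24 (adjusted p = 0.00598). NUP210L had 0 counts.

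RAB3D, found on secretory granules, differed more between the library sets than between the groups. It had 64.6, 25.4 and 25.1 CPM in IKZF1-ko and 21.6, 57.8 and 19.2 CPM in NT control libraries, with the high value of each group in the smaller set. Within both sets the IKZF1-ko value was the higher one. Its log2 fold change was 0.24 with the set term (SE 0.08, adjusted p = 0.0392, edgeR) and 0.31 in the 4 libraries (adjusted p = 0.0321), but 0.04 when a surrogate variable replaced the set (adjusted p = 0.809). RAB27A docks secretory granules at the plasma membrane, and its loss causes the immunodeficiency Griscelli syndrome. It had 185, 115 and 122 CPM in IKZF1-ko and 135, 204 and 139 CPM in NT control libraries, again highest in the smaller set. The groups overlapped over all 6 libraries but not within a set, where IKZF1-ko was lower (log2 fold change -0.19, SE 0.05, adjusted p = 0.0173 with the set term; -0.21, adjusted p = 0.0047 in the 4 libraries). The RAB3D and RAB27A calls with the set term ended when any 1 of the 4 libraries of the larger set was left out, at log2 fold changes of 0.19 to 0.27 for RAB3D and -0.21 to -0.16 for RAB27A.

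RAB44, RAB10 and RAB8A, which rank with RAB27A as the most abundant members of this role, did not pass. RAB44 had 330, 259 and 246 CPM in IKZF1-ko and 272, 372 and 255 CPM in NT control libraries, with overlapping groups (log2 fold change -0.10, adjusted p = 0.196). RAB10 had 150, 164 and 170 CPM in IKZF1-ko and 156, 143 and 166 CPM in NT control. RAB8A, the exocytic relative of RAB10 and RAB13, had 117, 126 and 129 CPM in IKZF1-ko and 134, 119 and 131 CPM in NT control. The other members tested in this role, RAB3A, RAB8B, RAB26 and RAB37, had log2 fold changes of -0.36 to 0.40, and none passed.

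Among RABs of late endosomes, lysosomes and phagosomes, 10 of 14 members were tested. RAB32, which serves lysosome-related organelles and the phagosomes of macrophages, rose. It had 6.75, 8.08 and 6.50 CPM in IKZF1-ko and 3.65, 4.23 and 3.76 CPM in NT control libraries, with no overlap. The log2 fold change was 0.87 with the set term (SE 0.17, 1.83-fold, adjusted p = 0.00192, edgeR) and 0.98 in the 4 libraries (adjusted p = 0.000823). RAB24, an atypical member linked to autophagy, had 2.87, 2.51 and 2.72 CPM in IKZF1-ko and 1.02, 2.59 and 1.40 CPM in NT control libraries. NT control replicate 2 reached the IKZF1-ko values. RAB24 passed in the 4 libraries, which leave that library out (log2 fold change 1.11, adjusted p = 0.0248), and not with the set term (0.70, adjusted p = 0.0952). In the 4 libraries its call ended without IKZF1-ko replicate 2 (1.17), IKZF1-ko replicate 3 (1.05) or NT control replicate 1 (0.90), and 926 of its 2065 exon bases (44.8%) also belong to MXD3 on the same strand.

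RAB7A differed little among libraries. It had 268, 278 and 281 CPM in IKZF1-ko and 281, 261 and 289 CPM in NT control libraries, and the groups overlapped (log2 fold change -0.01, SE 0.05). RAB29, RAB34 and RAB9A, which act at lysosomes and between endosomes and the Golgi, followed in level per length, at 14.96, 11.92 and 7.007 CPM per kilobase over all libraries. Their log2 fold changes were -0.12, 0.03 and -0.01, and none passed. RAB7B, a relative of RAB7A in monocytic cells, had -0.36 (adjusted p = 0.0717) and was higher in the larger set.

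All 6 members of the early endosome group were tested, and 1 rose and 2 fell in both fits. RAB31 moves cargo between the trans-Golgi and endosomes. It had 51.7, 72.9 and 73.7 CPM in IKZF1-ko and 47.0, 30.7 and 53.7 CPM in NT control libraries. The libraries of the smaller set were the lowest of their group, and within each set the IKZF1-ko values were above the NT control values. The log2 fold change was 0.61 with the set term (SE 0.07, 1.52-fold, adjusted p = 1.54e-05, edgeR) and 0.54 in the 4 libraries (adjusted p = 9.05e-07). RAB31 overlaps no other annotated exon.

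RAB5A, RAB5B and RAB5C direct the fusion of early endosomes, and they did not move alike. RAB5C had 21.3, 24.7 and 27.0 CPM in IKZF1-ko and 35.1, 25.9 and 33.1 CPM in NT control libraries, where replicate 2 overlapped the IKZF1-ko range. It fell by 0.37 on the log2 scale with the set term (SE 0.08, adjusted p = 0.00503, edgeR) and by 0.40 in the 4 libraries (adjusted p = 0.00167). RAB5B had 154, 114 and 115 CPM in IKZF1-ko and 131, 158 and 144 CPM in NT control libraries, with the smaller set higher in both groups. It fell by 0.18 with the set term (adjusted p = 0.0406) and by 0.26 in the 4 libraries (adjusted p = 0.00073). RAB5A had 37.95, 35.06 and 38.25 CPM in IKZF1-ko and 36.15, 33.51 and 40.15 CPM in NT control libraries, with a log2 fold change of 0.02 (adjusted p = 0.90). These 3 differences were not tested against each other. The RAB5B call with the set term ended without any 1 of the 4 libraries of the larger set (-0.20 to -0.12), and 794 of the 2761 exon bases of RAB5C (28.8%) also belong to the annotated gene AC099811.2 on the same strand. RAB21 and RAB22A, further endosomal members, did not overlap between groups but had log2 fold changes of 0.19 and -0.19 and did not pass (adjusted p = 0.11 and 0.134).

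**Figure D3:**
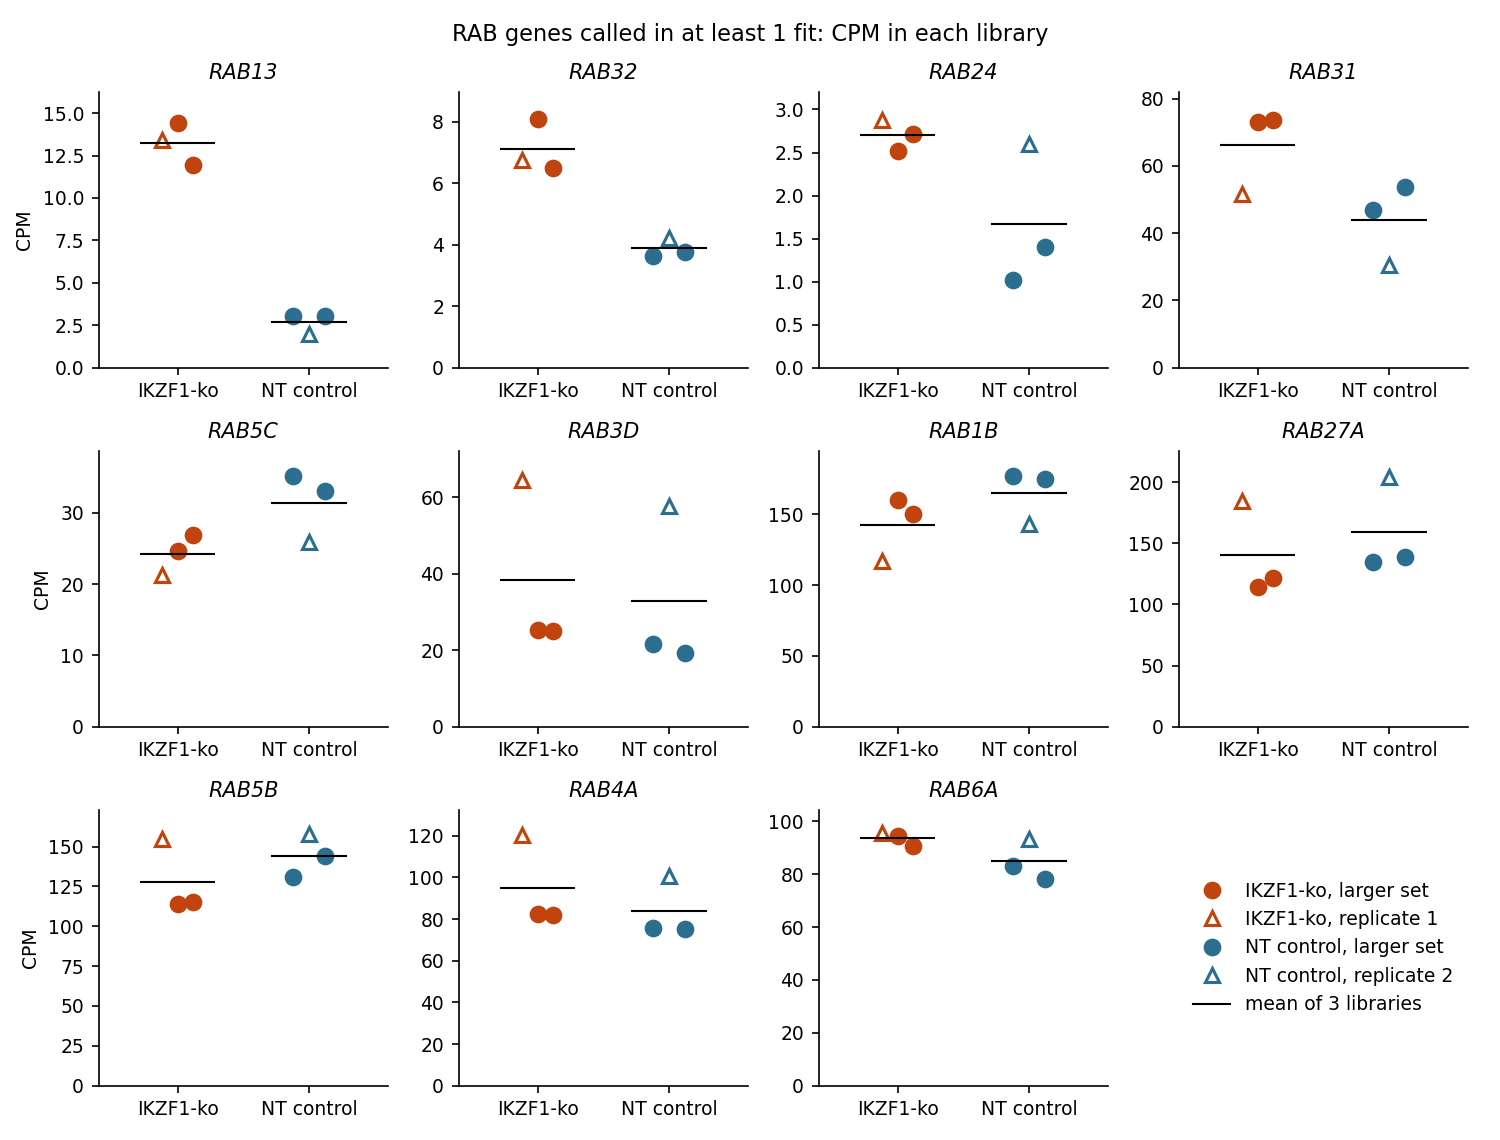
CPM in each library for the 11 RAB genes that passed in at least 1 fit, IKZF1-ko left and NT control right, with open triangles for the 2 libraries of the smaller set and a line at the mean of 3 libraries. The groups do not overlap for RAB13 and RAB32. For RAB3D, RAB27A, RAB4A, RAB5B, RAB6A and RAB24 both triangles lie above the other libraries of their group.

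Recycling RABs had 7 tested members of 9. RAB4A, of the fast recycling route, had 120, 82.2 and 82.1 CPM in IKZF1-ko and 75.7, 101 and 75.1 CPM in NT control libraries, with the smaller set higher in both groups. It passed with the set term (log2 fold change 0.17, SE 0.05, adjusted p = 0.0376, edgeR) and not in the 4 libraries (0.12, adjusted p = 0.162), and leaving out any 1 of the 6 libraries ended the call (0.12 to 0.19). RAB11A and RAB11B, of the slow recycling endosome, and RAB14 had mean levels of 17.0, 19.8 and 19.6 CPM per kilobase and log2 fold changes of -0.08, -0.06 and 0.01. None of these 3 passed. RAB4A shares 648 of 3310 exon bases (19.6%) with SPHAR on the same strand.

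Transport between the endoplasmic reticulum and the Golgi had 9 tested members of 15. RAB1B had 117, 160 and 150 CPM in IKZF1-ko and 177, 143 and 175 CPM in NT control libraries, lower in the smaller set. It fell by 0.22 on the log2 scale with the set term (SE 0.05, adjusted p = 0.00805, edgeR) and by 0.18 in the 4 libraries (adjusted p = 0.0105). The call with the set term ended without IKZF1-ko replicate 3 (-0.20), and 589 of its 2007 exon bases (29.3%) also belong to an antisense gene. Its paralog RAB1A had 84.6, 64.9 and 59.8 CPM in IKZF1-ko and 66.0, 76.7 and 73.1 CPM in NT control libraries, with overlapping groups (log2 fold change -0.05, adjusted p = 0.687). RAB6A, of retrograde transport at the Golgi, had 95.7, 94.4 and 90.6 CPM in IKZF1-ko and 83.2, 93.3 and 78.2 CPM in NT control libraries. The highest NT control library lay within the IKZF1-ko range. RAB6A passed in the 4 libraries (log2 fold change 0.20, adjusted p = 0.0203) and not with the set term (0.14, adjusted p = 0.102), and in the 4 libraries its call ended without IKZF1-ko replicate 2 (0.17) or NT control replicate 3 (0.15). RAB2A, a Golgi member, had a log2 fold change of 0.01. RAB1A and RAB1B, and RAB6A and its retrogene copy RAB6C, are similar in sequence, and how reads matching both were counted is not stated.

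In the remaining roles 3 of 6 members were tested, and none passed. RAB28, RAB40C and RAB23 had mean levels of 8.001, 7.839 and 2.481 CPM per kilobase and log2 fold changes of -0.03, -0.03 and -0.13. RAB40C is part of a ubiquitin ligase, and RAB23 is known from hedgehog signalling and cilia. Over all roles, the 34 members that passed in no fit had log2 fold changes of -0.36 to 0.40.

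IKZF1-ko replicate 1 and NT control replicate 2 took no part in the fit on 4 libraries, so the difference between them is a separate reading of the same contrast with 1 library a group and no test. It had the same sign as the 4-library fold change for 10 of the 10 RAB genes called there. Over all genes called there with a value in the pair, 83.7% of 1902 had the same sign, and among tested genes, called or not, 28 of 45 RAB genes (62.2%) did, beside 63.0% of all genes. The log2 difference of this pair was 2.68 for RAB13, 0.75 for RAB31, 0.66 for RAB32, -0.29 for RAB5C and -0.29 for RAB1B. It was smaller for RAB3D (0.16), RAB24 (0.14), RAB27A (-0.14), RAB6A (0.04) and RAB5B (-0.03).

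Several RAB genes differed more between the library sets than between the groups, which is a description, since the sets came from the same counts. At least 1.5-fold differences in both groups were found for 9 RAB genes higher in the smaller set, beside 11.8% of all tested genes, and for 3 lower there, beside 8.09%. RAB20, which acts on phagosomes and is known to be induced by hypoxia, had 13.6 CPM in IKZF1-ko replicate 1 against 6.33 and 5.68 CPM in the other IKZF1-ko libraries. In NT control it had 12.9 CPM in replicate 2 against 5.430 and 5.599 CPM. RAB3D was 1.349 and 1.502 higher on the log2 scale in the smaller set within IKZF1-ko and NT control. RAB39A, a phagosomal member, was 1.34 and 1.18 lower on that scale (-1.34 and -1.18), with 1.74, 4.91 and 4.32 CPM in IKZF1-ko and 4.24, 1.71 and 3.85 CPM in NT control. RAB15 and RAB7B were likewise lower in the smaller set in both groups. The hypoxia-inducible genes were higher in the smaller set by 1.00 on average on the log2 scale in IKZF1-ko and by 1.05 in NT control, and their part in the RAB values was not tested.

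**Figure D4:**
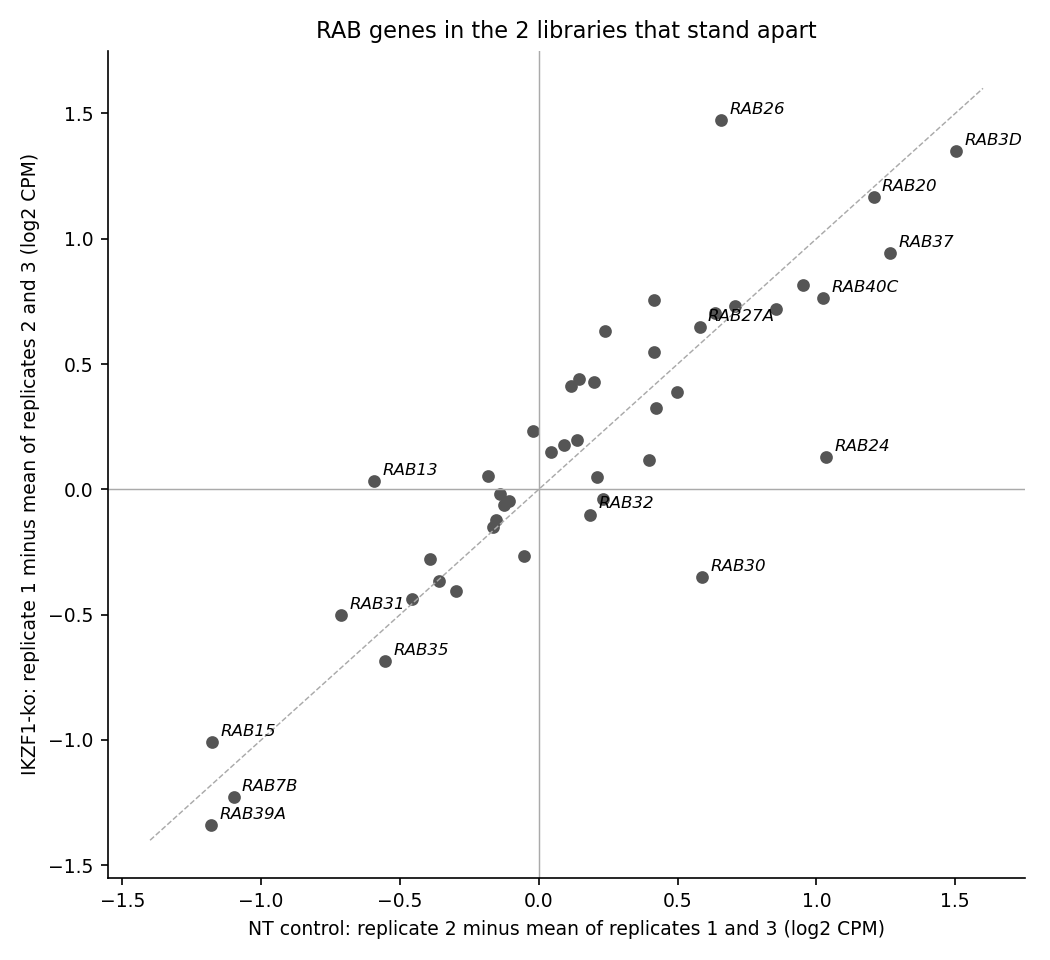
Difference in log2 CPM between the library that stands apart and the mean of the other 2 libraries, in IKZF1-ko (vertical axis) and NT control (horizontal axis), for the 45 tested RAB genes, with the line of equal difference dashed. RAB3D and RAB20 lie at the upper right and RAB39A, RAB7B and RAB15 at the lower left, whereas RAB13 lies at 0.03 in IKZF1-ko and -0.59 in NT control.

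Genes that load, switch or read RAB proteins were counted from 5 lists. The lists hold 134 genes with counts reported, and 122 of them were tested. With the set term 16 rose and 1 fell. So 13.9% passed, close to the 13.5% of all tested genes, while 13.1% rose, beside 6.93% of all tested genes. In the 4 libraries 21 rose and 1 fell, so 18% passed, beside 14.7% of all genes tested there, of which 7.64% rose. The median log2 fold change with the term was 0.05 over the lists and 0.00 over all tested genes. By list, 1 of 7 tested genes of the membrane cycle, 3 of 19 GEFs with a DENN domain, 3 of 27 other GEFs, 3 of 34 GAPs and 6 of 35 effectors rose with the term, and 1 effector fell. In the 4 libraries the same lists had 1, 6, 5, 5 and 4 rises and 1 effector that fell. No list was tested as a set.

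In the GEF lists, RIN1 and RIN2, which act on the RAB5 subfamily, had the largest changes. RIN1 had 11.3, 7.70 and 7.45 CPM in IKZF1-ko and 3.31, 5.26 and 3.41 CPM in NT control libraries, with no overlap (log2 fold change 1.14 with the set term, SE 0.15, adjusted p = 6.35e-05, edgeR). RIN2 was low, with 3.81, 1.58 and 1.30 CPM in IKZF1-ko and 0.339, 1.57 and 0.525 CPM in NT control, and NT control replicate 2 reached the IKZF1-ko range (1.47, adjusted p = 0.00449). RAB3IL1, an exchange factor for RAB8, rose by 0.50 without overlap between groups (adjusted p = 0.0206). DENND4C, an exchange factor for RAB10, had 33.3, 27.8 and 29.6 CPM in IKZF1-ko and 22.8, 22.3 and 22.1 CPM in NT control, with no overlap (0.43, adjusted p = 0.00207). DENND1C, which acts on RAB35, and DENND3, which acts on RAB12, passed at 0.26 and 0.14 with the set term (adjusted p = 0.0417 and 0.0489). In the 4 libraries they passed at 0.37 and 0.18 (adjusted p = 0.00447 and 0.00366). With the surrogate variable they had 0.13 and 0.03 (adjusted p = 0.397 and 0.734). Both calls with the set term ended without any 1 of the 4 libraries of the larger set (0.16 to 0.30 for DENND1C, 0.12 to 0.14 for DENND3). The RAB3IL1 call ended without IKZF1-ko replicate 3 (0.43), NT control replicate 1 (0.46) or NT control replicate 3 (0.46) and with DESeq2 (adjusted p = 0.0781).

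Of the GAP list, TBC1D9 had 2.01, 3.77 and 3.25 CPM in IKZF1-ko and 1.10, 0.341 and 1.23 CPM in NT control libraries, with no overlap (log2 fold change 1.79 with the set term, SE 0.29, adjusted p = 0.000539, edgeR). TBC1D30 went with the library set. It had 183, 10.7 and 10.5 CPM in IKZF1-ko and 5.01, 123 and 7.09 CPM in NT control. Its log2 fold change was 0.65 with the set term (adjusted p = 9.15e-05) and 0.81 in the 4 libraries (adjusted p = 0.000972). With the surrogate variable it was 0.05 (adjusted p = 0.83). TBC1D8 passed at 0.21 with the set term (adjusted p = 0.0103) and at 0.21 in the 4 libraries (adjusted p = 0.0129). It had 0.16 with the surrogate variable (adjusted p = 0.0739). The call with the set term ended without IKZF1-ko replicate 3 (0.21) or NT control replicate 1 (0.21). CHML, a RAB escort protein, passed at 0.19 with the set term (adjusted p = 0.0444), not in the 4 libraries (0.11, adjusted p = 0.201), and not with the set term under relative log expression scaling (adjusted p = 0.0566) or DESeq2 (adjusted p = 0.13). Leaving out any 1 library other than NT control replicate 3 also ended it (0.11 to 0.22). The membrane cycle gene that rose in the 4 libraries was GDI2, an inhibitor that lifts RAB proteins off membranes (0.12, adjusted p = 0.0494).

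Among effectors, MICALL2 binds RAB13 and RAB8 and links them to actin. It had 24.0, 14.3 and 13.0 CPM in IKZF1-ko and 11.03, 14.06 and 10.5 CPM in NT control libraries, and NT control replicate 2 lay within the IKZF1-ko range. Its log2 fold change was 0.51 with the set term (SE 0.11, adjusted p = 0.00611, edgeR) and 0.34 in the 4 libraries (adjusted p = 0.0774), and the call ended without IKZF1-ko replicate 1 (0.34) or NT control replicate 2 (0.34). EHBP1L1, which binds RAB8 and RAB10, had 81.1, 66.7 and 66.4 CPM in IKZF1-ko and 53.6, 63.6 and 53.8 CPM in NT control, without overlap (0.32, adjusted p = 0.00086). RAB11FIP5, an effector of RAB11, rose by 0.85 with the set term (adjusted p = 0.00139, edgeR). It had 17.2, 8.03 and 5.50 CPM in IKZF1-ko and 3.82, 9.42 and 3.76 CPM in NT control. The groups overlapped, and both libraries of the smaller set were above the others. RAB11FIP3, which binds the same RAB, fell by 0.25 (adjusted p = 0.00611). It had 71.6, 71.1 and 66.4 CPM in IKZF1-ko and 85.8, 81.6 and 81.8 CPM in NT control, without overlap. USO1, a tether that binds RAB1, passed at 0.22 with the set term (adjusted p = 0.00611) and at 0.17 in the 4 libraries (adjusted p = 0.018). With the surrogate variable it had 0.15 (adjusted p = 0.0846).

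**Figure D5:**
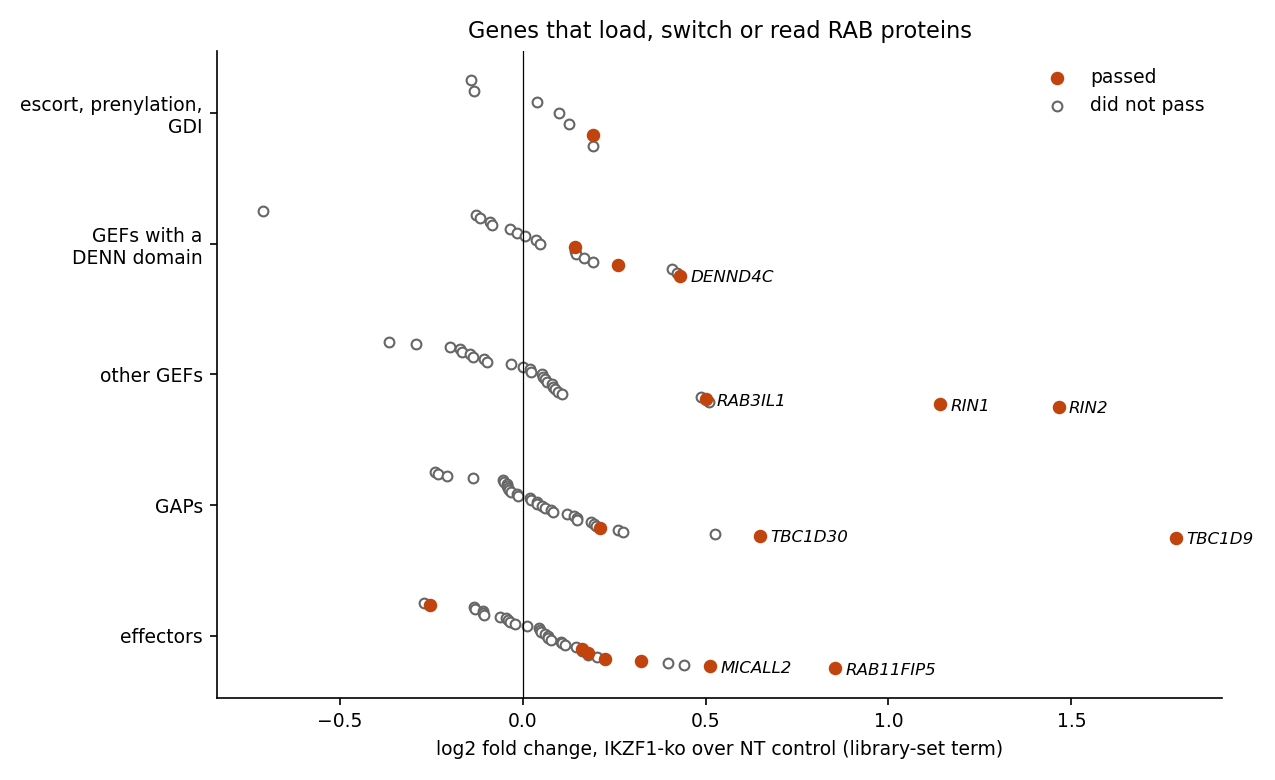
Log2 fold change, IKZF1-ko over NT control, with the library-set term for the 122 tested genes of 5 lists that load, switch or read RAB proteins, 1 row per list and 1 point per gene. Filled points passed at an adjusted p of 0.05: 16 lie right of 0 and 1 lies left of it, and TBC1D9, RIN2 and RIN1 are the points above 1.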

How the data were processed

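Polyadenylated RNA of OCI-AML2 cells was sequenced from stranded mRNA libraries, per the labels' protocols. The deposited table holds whole-number read counts per gene from the authors, without scaling. The submitters' processing notes list Trimmomatic, STAR and the build GRCh38, without tool versions. How reads were assigned to genes, with which annotation and strand setting, is not given in the sources used here. Genes that share exon bases are therefore uncertain: 31 of the 63 RAB genes do, 10 of them on the same strand, in GENCODE release 29. The table has 0 columns of other samples.

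The filterByExpr function kept 13028 genes. CPM used TMM factors, and log2 CPM a prior count of 2. Tests were edgeR 4.0.16 quasi-likelihood F tests in R 4.3.3 over all tested genes, two-sided, with Benjamini-Hochberg adjustment at 0.05, on group alone, with a library-set term (the sign of the first principal component), and on the 4 libraries of the larger set, refiltered to 12951 genes. Alternatives were other scalings, filters and thinned depth, DESeq2 1.42.0, limma-voom (limma 3.58.1), a fold of 1.5, 1 surrogate variable (sva 3.50.0), a replicate block and each library left out.

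The members, gene lists and settings were chosen with earlier results of these data known. RAB genes past the threshold in any fit, up to 12, the most abundant of each role, and up to 4 genes per partner list by adjusted p are named in full. Scripts were tested on simulated data. Figures were drawn with matplotlib 3.10.9.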

Additional observations from a re-analysis of the deposited data

How the results depend on the processing

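With group alone the count of RAB genes called was 0 in 14 of 16 alternatives and 1 (RAB13) with DESeq2 or with no filter on low counts, and 0 to 0 with each library left out. With the set term the count of 9 stayed within 6 to 11 in the alternatives other than the block but fell to 1 (RAB13) when a fold of 1.5 had to be exceeded, and ranged from 4 to 10 with each library left out: 4 without IKZF1-ko replicate 3, and 5 without NT control replicate 1 or replicate 3. In the 4 libraries the count of 10 was 6 with DESeq2, 1 with the fold of 1.5, 9 at equal depth and 6 to 8 with each library left out, where the lone library of a group is assumed to vary like those of the other group; the 6 came without IKZF1-ko replicate 2. The count was 9 or 10 in both fits under each other scaling. RAB32, RAB31 and RAB5C passed with both fits in every alternative but the fold of 1.5. None of the 11 called RAB genes turned its direction in an alternative of these 2 fits.

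With a replicate block the group-alone count stayed at 0, and beside the set term it was 14 (9 up, 5 down), on fewer residual degrees of freedom. Libraries with the same number deviated together for replicate 3 (correlation 0.588) and in opposite directions for replicates 1 and 2 (-0.655 and -0.689), so the numbers were not taken as pairs. No block was possible in the 4 libraries, whose groups share 1 number. Depth limits the low members: RAB13 rests on 29 to 36 counts per NT control library.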
